A study of Canis lupus familiaris with 4 samples.

Results

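PLK2, BTG1, CCNG1, MDM2, TP53I3, TNFRSF10B, CDKN1B and RBL1, 8 genes of the p53 response and of cell cycle arrest, were described across transfectants of E2-2, the basic helix-loop-helix transcription factor encoded by TCF4. The members were all clones on the array whose platform annotation gave exactly 1 of these symbols, 19 of 13824 clones and 8 of the 6043 genes the annotation named. Of the 19 clones, 15 had a value on all 4 arrays, 3 on some of them and 1, an MDM2 clone, on none. CCNG1 was represented by 4 clones, MDM2 by 5, CDKN1B and RBL1 by 3 each, and the other genes by 1 each. Clones of a gene are numbered here in their order on the array.

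The cells were MDCK, an epithelial line from dog kidney. The groups were MDCK transfected with E22A or with E22B, taken here as the isoforms A and B of E2-2, and both were read against RNA of the MDCK-CMV line, which served as the control on every array. All the cells were grown in the same medium with serum and antibiotics, and labelled material was made from amplified RNA. Each transfectant was 1 biological sample on 2 arrays, and every SD below is over those 2 arrays and measures technical spread. The series asks how E2-2 regulates E-cadherin and the epithelial-mesenchymal transition.

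The p53 protein is a transcription factor that is stabilised by DNA damage and other stresses and that switches on genes for cell cycle arrest, repair and cell death. MDM2 is both its target and its ubiquitin ligase, which closes a negative feedback loop. Arrest in G1 depends on inhibitors of cyclin-dependent kinases, such as the CDKN1B product p27, and on pocket proteins such as the RBL1 product p107, which hold E2F factors inactive. Much of the control of p27 acts on its protein and is not seen in RNA.

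The array carried human cDNA clones printed in duplicate and was hybridised with canine RNA, so a ratio also depends on cross-species binding. Between 22360 and 23136 of the 27648 spots had a value on an array. The 2 spots of a member clone differed by a median of 0.03 log2 units, and by 0.22 at most, over the 64 pairs of spots measured. The dog gene table (UU_Cfam_GSD_1.0) lists 6 of the 8 symbols, and TP53I3 and TNFRSF10B had no entry. The values are ratios, so they cannot show whether a gene or a cell type marker was expressed, and the label of the cells could not be checked in that way.

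All values are log2 ratios of the dyes, with base 2 assumed, since no header or label gives the base or the dye in the numerator. For E22B the titles and the channel labels name the same dyes, Cy3 on array 1 and Cy5 on array 2. As deposited, the E22B arrays correlated at r = -0.41 across 11358 clones, and the sign of array 1 was turned. For E22A array 2 both labels put the transfectant in Cy3, although the protocol text listed for that array names only the control. On E22A array 1 they disagree, with Cy5 in the title and Cy3 in the channel labels. The E22A arrays correlated at r = 0.37 as deposited across 10725 clones, so after turning by title they ran against each other beyond the limit of -0.3. E22A thus has no direction settled by its labels. Its means are given in both readings, called the title reading and, by the channel labels, the channel reading. The channel reading has E22A in Cy3 on both arrays, so its means keep any dye effect of a clone. As deposited, CDH1 stood at -0.90 and -1.13 on the E22A arrays and at -1.08 and 0.79 on the E22B arrays, and FN1, fibronectin, at 2.68 and 1.89 and at 2.08 and -1.36. In both genes the E22A arrays had the sign of E22B array 1, on which both labels give Cy3. This is the pattern the channel reading would give if a gene moved alike in both transfectants. The dyes themselves were not tested, and both readings are kept. If both E22A arrays ran the other way, each of its values would change sign. Positive means lie on the side of E-cadherin (CDH1) in E22B, where the clone measured on all arrays stood at 0.93 ± 0.20 (SD, n = 2 arrays). Another CDH1 clone gave -3.71 and 0.92 as deposited on the E22B arrays, a mean of 2.31 ± 1.97. If Cy5 is the numerator, positive means higher in the transfectant, opposite to the known repression of E-cadherin by E2-2 in MDCK. If Cy3 is the numerator, positive means lower in the transfectant, the direction of that repression. Which dye is the numerator was not tested. The transfected gene, TCF4, stood at -0.18 ± 0.33 and -0.01 ± 0.17 in its 2 clones in E22B. On the E22A arrays the first clone gave 0.57 and 0.34 as deposited, and the other -0.03 and 0.39. Their E22A means were -0.45 ± 0.16 and -0.18 ± 0.30 in the channel reading, and 0.11 ± 0.64 and -0.21 ± 0.26 in the title reading. The clones' overlap with the transfected cDNA was not checked, so TCF4 tests no label here.

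**Figure D1:**
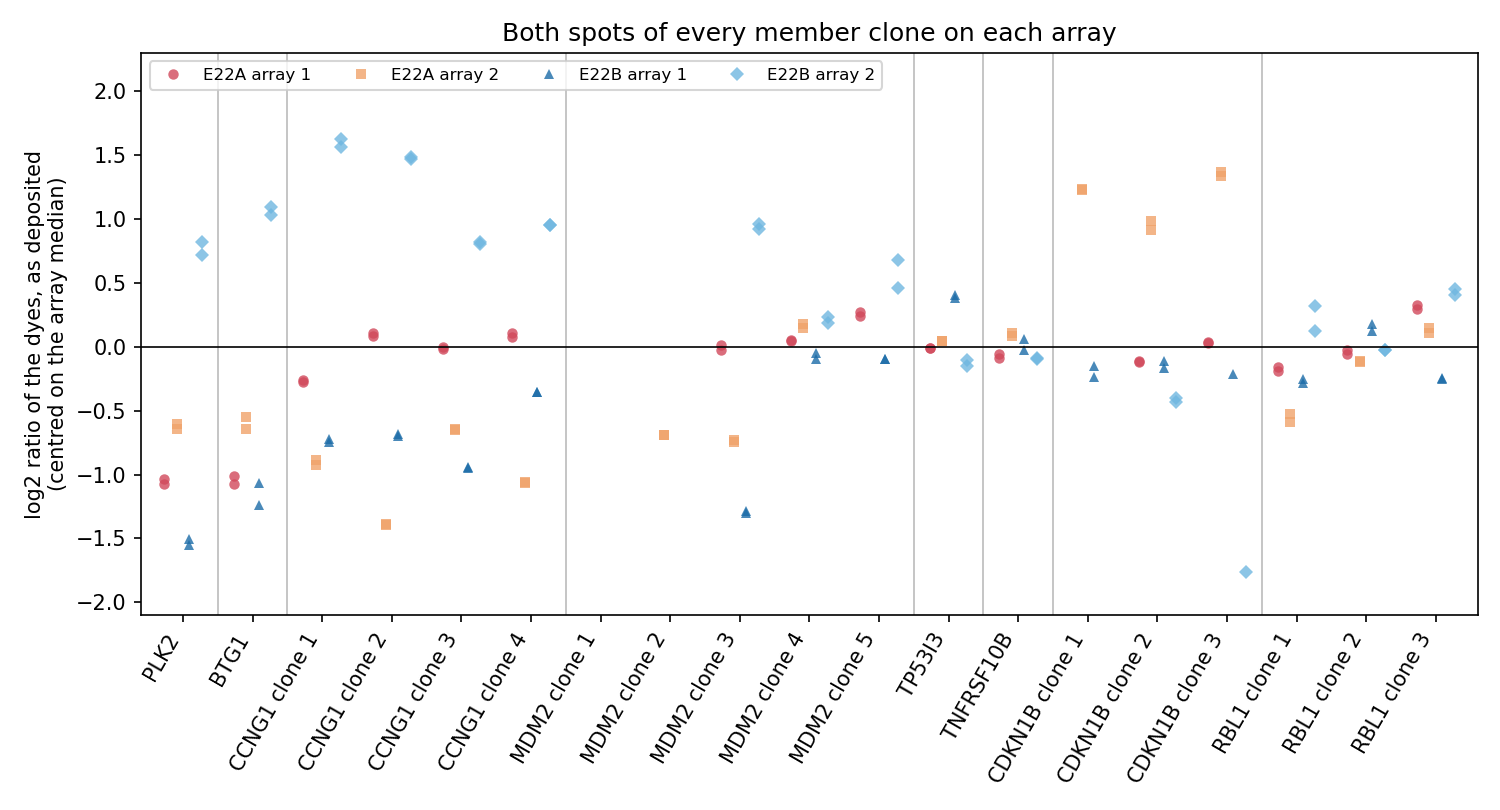
Log2 ratio of the dyes as deposited, centred on the array median, for both spots of each of the 19 member clones (x axis) on the 4 arrays (symbols). CCNG1 and MDM2 clone 3 lie below 0 on E22B array 1 and E22A array 2 and above 0 on E22B array 2, but near 0 on E22A array 1, where PLK2 and BTG1 lie at -1.06 and -1.05.

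In E22B, PLK2, BTG1, all 4 CCNG1 clones and MDM2 clone 3 stood on the positive side of both arrays. Their means ran from 0.65 to 1.17, which are ratios of 1.57-fold to 2.24-fold. Whether these are higher or lower in the transfectant depends on the dye in the numerator, which no label gives. TP53I3 stood on the other side and TNFRSF10B near 0. The CDKN1B clones had means below 0 but did not turn with the dye, and RBL1 varied from clone to clone. E22B is 1 biological sample, so no test was made.

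PLK2 encodes a polo-like kinase induced by p53 and by serum. Its deposited ratios were -1.53 on E22B array 1 and 0.77 on array 2, a mean of 1.15 ± 0.54 after turning. Array 1 lay farther from 0 than array 2, and both gave the same side. This mean ranked 164 of 11358 clones with a value on both E22B arrays.

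BTG1, an antiproliferative protein that binds the deadenylase complex, had the closest arrays among the member clones with a mean of 2-fold or more. Its deposited ratios were -1.15 and 1.06, and its mean was 1.11 ± 0.06, rank 181. It was the only member clone to reach 2-fold on each E22B array, a rule met on either side by 0.801% of all clones.

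CCNG1 encodes cyclin G1, a p53 target that guides a phosphatase to MDM2. On E22B array 1 its 4 clones gave -0.73, -0.69, -0.95 and -0.35 as deposited. On E22B array 2 they gave 1.60, 1.48, 0.81 and 0.96. Every clone changed sign with the dye, and in all but clone 3 the second array lay farther from 0. The means were 1.17 ± 0.61, 1.08 ± 0.56, 0.88 ± 0.10 and 0.65 ± 0.43. These clones are of different accessions, and over the 4 of them the E22B value was 0.95 ± 0.23 (SD over clones of 1 sample).

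MDM2 was split by clone. Clone 3 gave -1.29 and 0.94 as deposited on the E22B arrays, a mean of 1.12 ± 0.25, rank 176. Clone 4 gave -0.07 and 0.21, a mean of 0.14 ± 0.10. Clone 5 gave -0.09 and 0.57, a mean of 0.33 ± 0.34. All 3 lay on the positive side, but clone 3 stood 0.98 above clone 4. Clone 2 had no value in E22B and clone 1 none on any array. Which of these clones reports canine MDM2 best was not tested.

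A ratio of 1.5-fold on one side of both E22B arrays was reached by 6 member clones of 16 with both values, all positive, from PLK2, BTG1, CCNG1 (clones 1 to 3) and MDM2 (clone 3). Over all 11358 clones 2.71% met the rule on the positive side and 0.625% on the negative. CCNG1 clone 4 missed it through array 1. The median over the 16 member clones was 0.34, beside -0.00128 over all clones. The genes were proposed with results of these arrays known, so the count describes the members and supports nothing further.

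**Figure D2:**
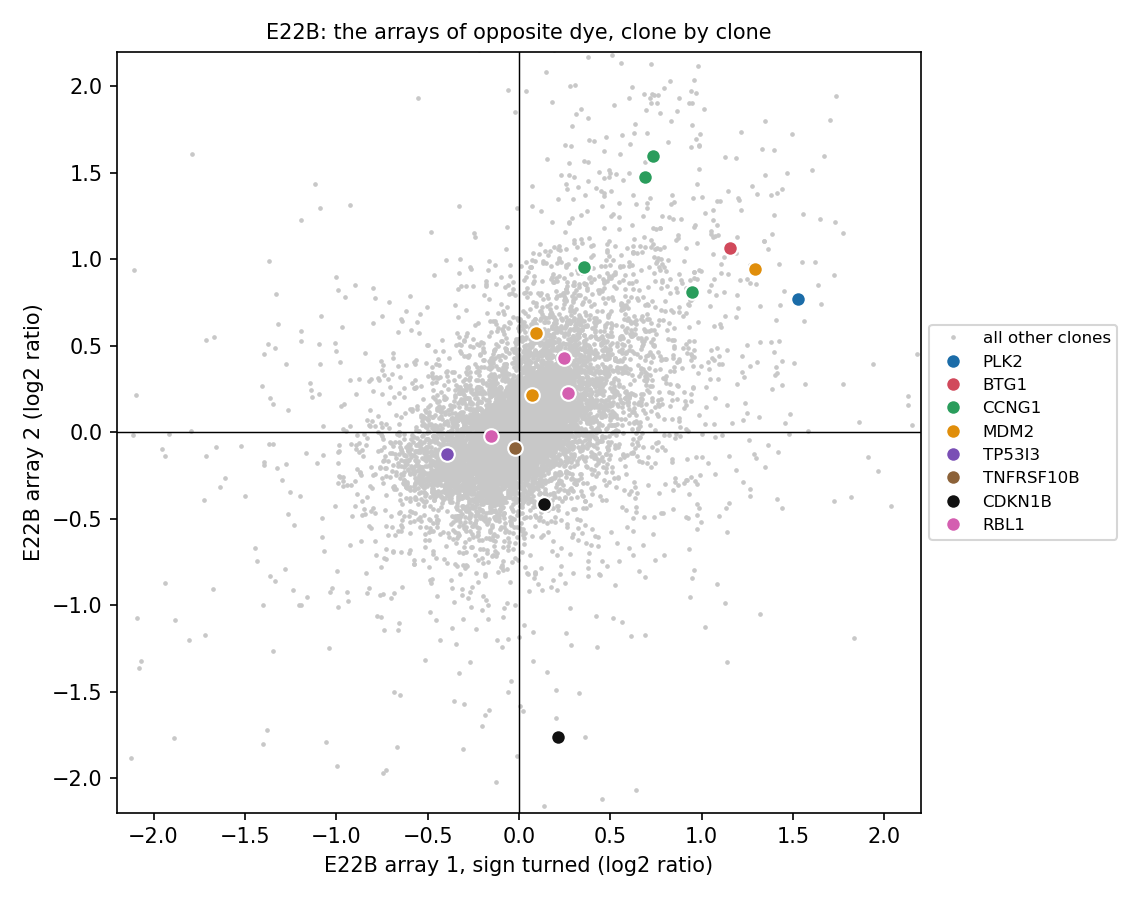
Each clone's log2 ratio on E22B array 1, sign turned (x axis), against E22B array 2 (y axis), with the member clones in colour and all other clones in grey; 101 grey clones lie beyond the axis limit of 2.2. PLK2, BTG1, the CCNG1 clones and MDM2 clone 3 lie in the upper right, and both CDKN1B clones lie right of 0 and below it.

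The remaining p53 targets among the members stood near 0 or on the negative side in E22B, and the dog gene table lists neither symbol. TP53I3, a quinone oxidoreductase linked to oxidative cell death, gave 0.39 and -0.13 as deposited on the E22B arrays, a mean of -0.26 ± 0.19. It turned with the dye, on the side opposite to CCNG1. TNFRSF10B, a death receptor for the ligand TRAIL, gave 0.02 and -0.09, a mean of -0.06 ± 0.05. Its mean ranked 6833 of 11358.

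CDKN1B kept the same sign on both E22B arrays as deposited. Clone 2 gave -0.14 and -0.42, and clone 3 gave -0.22 and -1.76, the last from a single spot. Turned by the dye, the arrays of each clone fell on opposite sides of 0, as did those of 29.9% of all clones. The means were -0.14 ± 0.39 and -0.77 ± 1.40, and each SD exceeded its mean in size. The part that did not turn with the dye, the mean of both deposited values, was -0.28 in clone 2 and -0.99 in clone 3. The part of a dye preference in these values was not tested. Clone 1, of the same accession as clone 2, gave -0.19 on E22B array 1 and had no value on array 2.

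RBL1 was represented by 3 clones of 1 accession that did not give the same value. Their deposited ratios on E22B array 1 were -0.27, 0.15 and -0.25, and on array 2 they were 0.22, -0.02 and 0.43. The means were 0.25 ± 0.03, -0.09 ± 0.09 and 0.34 ± 0.13, so clone 2 lay apart from the others and on the other side of 0. Clones 2 and 3 differed by 0.43. Over all 984 pairs of clones of 1 accession the median difference in E22B was 0.10 and the 90th percentile 0.35, with r = 0.63. Over 1651 pairs of clones of 1 gene with different accessions the median difference was 0.21 and the 90th percentile 0.64, with r = 0.25. The 0.98 between MDM2 clones 3 and 4 was above that percentile, and the largest difference between CCNG1 clones, 0.51, was below it.

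In E22A most members followed 1 of 3 patterns, which do not depend on how the arrays are turned. PLK2 and BTG1 stood far from 0 on both arrays, CCNG1, MDM2 clone 3 and CDKN1B on array 2 only, and TP53I3, TNFRSF10B and MDM2 clone 4 on neither. No test was made, since E22A is also 1 biological sample.

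PLK2 gave -1.06 and -0.62 as deposited on the E22A arrays, and BTG1 gave -1.05 and -0.60. The genes were almost alike on both arrays, and each was farther from 0 on array 1. In the channel reading PLK2 stood at 0.84 ± 0.31 and BTG1 at 0.82 ± 0.32, on the side they take in E22B. The arrays cancel in the title reading, at -0.22 ± 1.19 and -0.22 ± 1.16.

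The 4 CCNG1 clones gave -0.26, 0.10, -0.01 and 0.09 on E22A array 1 as deposited. On E22A array 2 they gave -0.90, -1.39, -0.65 and -1.06. Every value of array 2 lay below every value of array 1. The means were therefore set mainly by array 2 and were positive in both readings. In the channel reading they were 0.58 ± 0.45, 0.65 ± 1.05, 0.33 ± 0.45 and 0.49 ± 0.82, and in the title reading 0.32 ± 0.83, 0.75 ± 0.92, 0.32 ± 0.47 and 0.58 ± 0.69.

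MDM2 clone 3 had the same form, with -0.01 on E22A array 1 and -0.74 on array 2, and means of 0.37 ± 0.52 in the channel reading and 0.36 ± 0.52 in the title reading. Clone 2, measured on E22A array 2 alone, gave -0.69 there, with the same value in both spots. Clone 5, of the same accession, gave 0.26 on E22A array 1 and had no value on array 2. Clone 4 gave 0.05 and 0.16.

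CDKN1B was near 0 on E22A array 1, at -0.12 in clone 2 and 0.03 in clone 3. On E22A array 2 its 3 clones gave 1.23, 0.95 and 1.35, opposite in sign to CCNG1 on the same array. The means of clones 2 and 3 were -0.42 ± 0.76 and -0.69 ± 0.93 in the channel reading and -0.53 ± 0.59 and -0.66 ± 0.98 in the title reading. Across both transfectants the CDKN1B clones stayed within 0.22 of 0 on the first arrays, and their values away from 0 were all on the second arrays.

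The other members stayed closer to 0. TP53I3 gave -0.01 and 0.04 on the E22A arrays, and TNFRSF10B gave -0.07 and 0.10. The 3 RBL1 clones gave -0.17, -0.04 and 0.31 on array 1 and -0.56, -0.11 and 0.13 on array 2. Their means in the channel reading were 0.36 ± 0.27, 0.08 ± 0.05 and -0.22 ± 0.13, so here clone 3 lay on the side opposite to the others. Those of the title reading were 0.19 ± 0.52, 0.04 ± 0.11 and 0.09 ± 0.31.

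Counted array by array at 1.5-fold or more on either side, E22A array 1 held 2 of 16 member clones with a value (7.19% of all clones), PLK2 and BTG1. E22A array 2 held 11 of 17 (7.68%), which added the 4 CCNG1 clones, MDM2 clones 2 and 3 and the 3 CDKN1B clones. E22B array 1 held 6 of 17 (9.93%) and E22B array 2 held 8 of 16 (10%). The background was thus about as high on both arrays of a transfectant, and the members' count on E22A array 2 was well above that on array 1.

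On both E22A arrays at once, in the channel reading, 2 of 15 member clones were past 1.5-fold on the same side, PLK2 and BTG1, where 2.03% of all clones were. Both also reached 1.5-fold on the positive side of all 4 arrays in that reading, where 0.691% of all clones did, against 0% in the title reading. The title reading gave 0 of 15, where 0.345% of all clones were. Without E22A array 1 the count was 11 of 17 in either reading, the clones of array 2 alone.

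**Figure D3:**
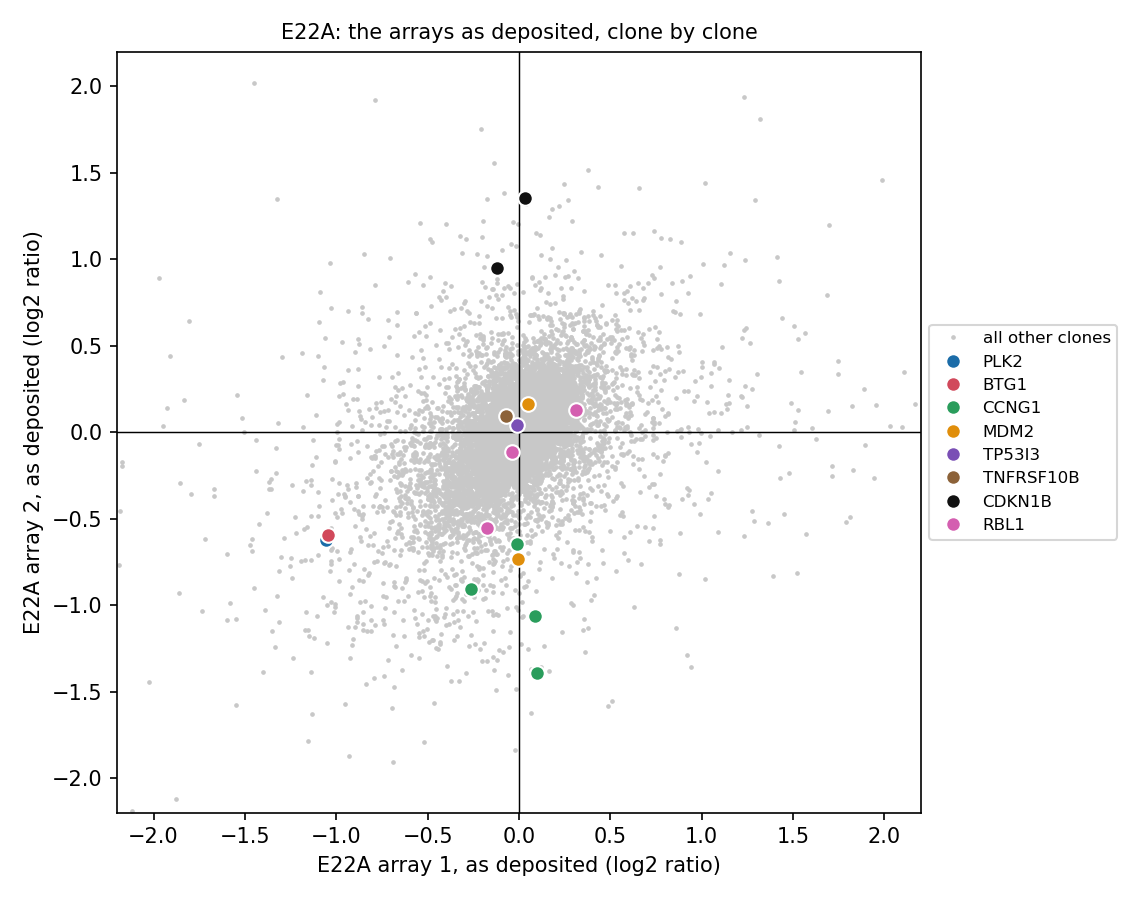
Each clone's log2 ratio as deposited on E22A array 1 (x axis) against E22A array 2 (y axis), member clones in colour, all other clones in grey; 43 grey clones lie beyond the axis limit of 2.2. PLK2 lies almost under BTG1 at the left, while the CCNG1 clones and MDM2 clone 3 lie below 0, and CDKN1B above it, close to the vertical line at 0.

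E22A and E22B share the control RNA, so the values of each are given side by side and their difference is described only. In the channel reading PLK2 stood at 0.84 in E22A and 1.15 in E22B, and BTG1 at 0.82 and 1.11. The CCNG1 clones ran from 0.33 to 0.65 in E22A and from 0.65 to 1.17 in E22B. For MDM2 clone 3 the values were 0.37 and 1.12, a difference of -0.75. This was the only member clone of 15 whose arrays did not overlap between the transfectants with means at least 1.5-fold apart, and 4.99% of all clones met that rule. A count of 1 in 15 is near that background. Without E22A array 2 the count was 7, and it was 4 without E22B array 1 and 4 without E22B array 2. With an array fewer, no overlap is easier to meet for every clone. The share of all clones is not given for these settings, so the counts cannot be set beside 4.99%. In the title reading PLK2, BTG1 and MDM2 clone 3 met the rule, 3 of 15, where 5.9% of all clones did. With both E22A arrays turned against the channel reading, 8 did, and the share of all clones is not given there either.

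Some clones stood away from 0 only on the first arrays of both transfectants, or only on the second. As deposited, 2% of all 10268 clones reached 1.5-fold on both first arrays and on neither second array, and 0 of 15 member clones did. The reverse held for 1.54% of all clones and for 2 of 15 member clones, CCNG1 clone 4 and CDKN1B clone 3. For these the array taken first or second moves with the value, and its part was not tested.

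**Figure D4:**
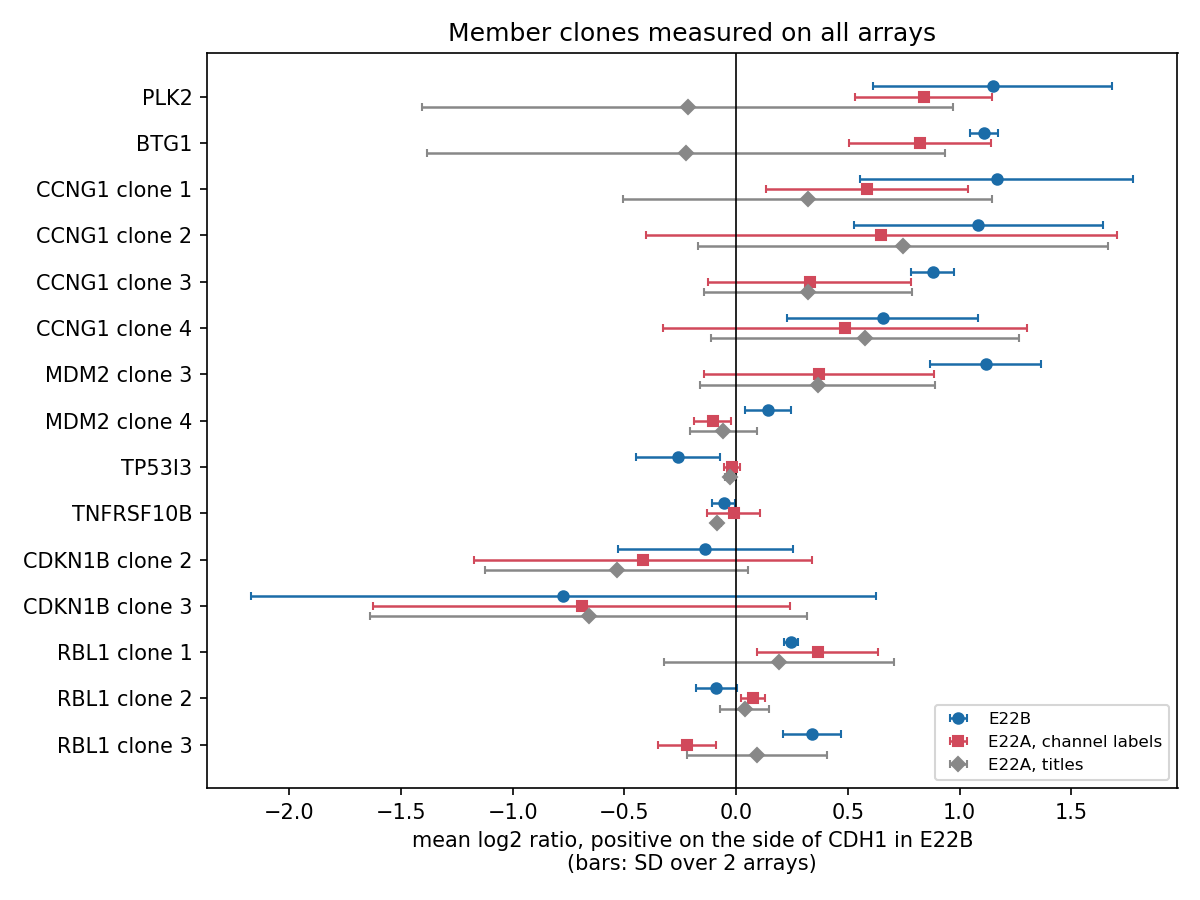
Mean log2 ratio (x axis) of the 15 member clones with a value on all 4 arrays (y axis), in E22B and in both readings of E22A, with bars for the SD over 2 arrays. PLK2 and BTG1 in E22A move from 0.84 and 0.82 in the channel reading to -0.22 in the title reading, while CCNG1 and CDKN1B keep their side of 0 in both.

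When the means of E22A and E22B were tested together against 0 with limma, 0 of 15 member clones passed an adjusted p of 0.05 in either reading. In the title reading 0 of 10268 clones passed (0%), with 363 at an unadjusted p under 0.05 (3.54%), 6 of them member clones. In the channel reading 15 clones passed (0.146%), 9 positive and 6 negative, and 1421 were at an unadjusted p under 0.05 (13.8%), 9 of them member clones. The smallest adjusted p of a member there was 0.0684, for PLK2, at a mean of 0.99 with a standard error of 0.12 and the same side on 4 of 4 arrays. BTG1 followed at 0.97 with an adjusted p of 0.0697 in limma. These genes were proposed with results of these arrays known, so the p-values describe them only. The 15 became 0 without E22A array 1, without E22A array 2 or without E22B array 1, and 7 without E22B array 2. The test treats the isoforms as replicates and leaves out the control's own spread. Each transfectant entered as the mean of its 2 arrays, so a difference between those arrays does not enter the standard error or p-value. CDKN1B clone 3 had SDs over arrays of 1.40 in E22B and 0.93 in E22A in the channel reading. Its standard error in the test was 0.098.

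The clones of other genes closest to the members over the 4 arrays were found by the root mean square difference of their centred ratios, for the 8 member clones whose own root mean square was at least 1.5-fold. PLK2 was nearest to SLAIN1, at 0.15, and BTG1 to KLF8, a repressor of E-cadherin, at 0.11. CCNG1 clones 1 to 4 were nearest to HSPD1 (0.12), ZDHHC20 (0.21), LBR (0.07) and RRAS2 (0.13). Each of these was nearer than any other CCNG1 clone, the closest of which lay 0.31 away. A minimum over 6499 clones tends to fall below a minimum over the few other CCNG1 clones, so that comparison decides nothing. MDM2 clone 3 was nearest to ELF2 (0.16) and CDKN1B clone 3 to SRSF8 (0.23). Between 6499 and 6502 clones were searched for each, and the likeness over 4 arrays is a description.

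The same rule was applied to lists of other genes of the pathway. Of 40 further p53 targets and regulators, 29 were on the array, and of their 36 clones with both E22B values 0 were at 1.5-fold on both arrays, where 3.34% of all clones were. Their median in E22B was -0.02. In the channel reading 0 of 33 clones met the rule in E22A (2.03% of all clones), with a median of 0.14. The title reading also gave 0 of 33 (0.345% of all clones). A count of 0 in so few clones is near these shares, here and in the lists below. Where a gene of these lists had several clones, the value named is of the one with the largest E22B mean in size among those on all arrays. PLK3, a relative of PLK2, stood just under 1.5-fold in E22B, at 0.58 ± 0.06 (0.50 to 0.58 over 3 clones), and PPM1D, the phosphatase that switches p53 signalling off, at 0.47 ± 0.18. GADD45A, a DNA damage response gene, gave -1.41 and -0.39 as deposited in E22B, the same sign on arrays of opposite dye, and its mean was 0.51 ± 1.27. BID, a mediator of cell death, stood at -0.41 ± 0.37, while its other measured clone was at 0.01.

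Among 20 further cell cycle inhibitors and antiproliferative genes, 15 were on the array. In E22B 0 of 15 clones with values met the rule (3.34% of all clones), at a median of -0.09. CDKN1A, the p21 gene and the best known arrest gene of p53, gave 0.73 and 0.05 on the E22B arrays and 0.66 and 0.21 on the E22A arrays as deposited. It did not turn with the dye, and its E22B mean was -0.34 ± 0.55, on the side opposite to CCNG1. BTG3, a relative of BTG1, stood at -0.23 ± 0.21, ING1 at -0.30 ± 0.34 (its other measured clone at -0.29) and CCNG2, a relative of CCNG1, at 0.29 ± 0.79. In E22A 0 of 15 clones met the rule in the channel reading (2.03% of all clones). In the title reading 1 did (0.345% of all clones), CDKN1C at -0.77 ± 0.12.

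Of 26 partners of CDKN1B and RBL1, the cyclins, kinases and E2F factors they bind or meet, 21 were on the array. Of their 33 clones 0 were at 1.5-fold on both E22B arrays, where 3.34% of all clones were. The median was 0.14. CCNA2, cyclin A, stood at 0.53 ± 0.14 (0.32 to 0.53 over 4 clones) and E2F5, which binds pocket proteins, at 0.53 ± 0.09. LIN9, of the complex that RBL1 can join, stood at 0.52 ± 0.54 (its other clone at 0.43). CCND1, cyclin D1, stood at -0.57 ± 1.18, from 1.40 and 0.27 as deposited, and its 4 clones ran from -0.57 to 0.11. In E22A 0 of 30 clones met the rule in the channel reading (2.03% of all clones). In the title reading 1 did (0.345% of all clones), a CCNA2 clone at 0.67 ± 0.10. In the limma test 0 clones of these 3 pathway lists passed in either reading.

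Markers of cell types were read the same way beside these results. In E22B 2 of 14 clones of kidney epithelial markers were at 1.5-fold on both arrays, both positive and both of CDH1. The positive side is named by CDH1, so its sign there is no result. Of 9 clones of fibroblast or mesenchymal markers 1, FN1, met the rule and was negative at -1.72 ± 0.51. Over all clones 3.34% met it on either side. Leukocyte markers (0 of 5 clones) and endothelial markers (0 of 2) did not meet the rule, with E22B means between -0.24 and 0.22. Other markers of these lists stood on the other side or on 1 array only. KRT8, an epithelial keratin, stood at -0.39 ± 0.50, ACTA2, smooth muscle actin, at 0.49 ± 0.22, and COL1A2, a collagen chain, at 1.77 ± 2.04. SPARC, a matrix protein, gave 4.03 and 0.06 as deposited on the E22B arrays and 3.80 and -0.41 on the E22A arrays. EPCAM, an epithelial adhesion molecule, gave -3.09 and -0.54, and -3.63 and 0.26. Both stood far from 0 on the first arrays alone. In E22A 1 of 13 epithelial clones (CDH1, 1.01 ± 0.16) and 1 of 9 mesenchymal clones (FN1, -2.28 ± 0.56) met the rule in the channel reading. Over all clones 2.03% did. The title reading gave 1 epithelial clone, of CLDN1, at -0.74 ± 0.18, and 0 mesenchymal clones, where 0.345% of all clones met the rule. The limma test in the channel reading called both SPARC clones, at means of -1.58 and -1.84 (adjusted p = 0.0473 and 0.0461), and 0 clones of the other marker lists, and in the title reading it called 0. The part of such shifts in the members' values was not tested.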

How the data were processed

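The authors deposited 1 table of log2 ratios of the 2 dyes, a row per spot, and the columns were already centred near 0, with deposited medians of 0.00294 and 0.00186 (E22A arrays 1 and 2) and -0.000946 and -0.00991 (E22B). The steps of image analysis, background correction and normalisation were not given in the sources used here. Scanner intensities were not used, and precision is limited by the small number of arrays. Spots were centred on the array median and the 2 spots of a clone averaged. Clones stayed separate, each named by the platform annotation. Array 1 of E22A is titled EE2A and was placed by its protocol text. The pooled test took each transfectant's mean over its 2 arrays as 1 value and tested both against 0 (limma 3.58.1 in R 4.3.3, Benjamini-Hochberg over 10268 clones). It has 1 residual degree of freedom per clone. Counts used 1.5-fold or more on both arrays. Members, lists and rules were chosen with earlier results of these data known. Genes of the lists were named by the largest E22B mean in size, at most 4 a list.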

Additional observations from a re-analysis of the deposited data

Results flagged for a closer look

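In the channel reading 3 of 15 member clones lay on one side of 0 on both E22A arrays and on the other on both E22B arrays. The rule sets no size, and some values lay close to 0, such as -0.02 for RBL1 clone 2 on E22B array 2. The share of all clones that met it is not given for either reading, so the count is no result about the members. The differences were not tested. E22A minus E22B was -0.25 for MDM2 clone 4, 0.17 for RBL1 clone 2 and -0.56 for RBL1 clone 3. RBL1 clones 2 and 3, of the same accession, differed in opposite directions. In the title reading 0 member clones met this rule.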

How the results depend on the processing

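In the title reading the pooled limma test called 0 clones in every alternative tried. In the channel reading its 15 calls became 0 with the E22A sign turned or with channel 2 over channel 1, 9 with the arrays scaled alike, 64 with both duplicate spots required, 1 with clones averaged by gene, 8 with incomplete clones kept, and 0 to 7 with an array left out. The 6 member clones of E22B became 3 genes when clones were averaged and 1 clone at 2-fold. The 0 of E22A in the title reading became 11 without E22A array 1 and 2 without E22A array 2 (0 to 11 over all arrays left out), and the 2 in the channel reading became 0 with channel 2 over channel 1, 1 with the arrays scaled alike, 0 at 2-fold and 2 to 11 with an array left out. The 1 clone that parted the transfectants became 8 with the E22A sign turned, 6 with channel 2 over channel 1, 0 with clones averaged or at 2-fold, and 1 to 7 with an array left out. For this count of 1 the share of all clones is not given in the alternatives. The cause of these changes was not tested. Leaving out an array moves a mean of 2 by less than its SD by construction, so it says nothing about the stability of the clone means. No paired analysis was possible because the labels give no replicate numbers, and arrays were numbered in accession order.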
